A study of Homo sapiens with 9 samples.

Results

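Innate pattern recognition genes encode the receptors, adaptors and effectors with which cells sense microbial molecules and misplaced nucleic acids. The set described here has 36 genes, taken from a fixed list of Toll-like receptor, NOD, RNA and DNA sensing and inflammasome genes, and each symbol matched 1 Ensembl identifier among the 57338 genes of the deposited table. By the description of the study, their RNA was measured in HEK293T cells, a human embryonic kidney line, 3 days after transfection. The cells received an empty EGFP vector or EGFP fused to the human protamine hPRM1 or hPRM2. In all 3 conditions the cells were sorted for high EGFP signal, and each condition had 3 libraries, prepared with a 3′ mRNA kit, which reads the end of each polyadenylated transcript. The labels name no separate cultures, so p-values measure the spread between these libraries, which may be technical. The question put to the genes is whether their transcript levels differed between cells with a protamine and cells with the empty vector.

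Toll-like receptors at the cell surface bind lipids and proteins of microbes, and those in endosomes bind nucleic acids. Both kinds signal through adaptors such as MYD88 and TICAM1 and through IRAK kinases and TRAF6, which lead to NF-kappaB and interferon regulatory factors. Inflammasomes are assemblies of a sensor, the adaptor PYCARD (also called ASC) and the protease CASP1, which matures IL1B and IL18 and cleaves the pore-forming protein GSDMD. Many of these genes are best known from myeloid cells of the blood, whereas the kinases and some adaptors are made in most cell types.

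The labels of 3 libraries did not match their content, and this bears on every comparison that uses them. PRM1 was listed at 0 in all 9 libraries, including the 3 labelled hPRM1, while PRM2 reached 71224, 60050 and 36130 RPKM (reads scaled to gene length and to the total of the library) in the hPRM2 libraries and was listed at 0 in the others. In the libraries labelled hPRM1, 0 of 8 HEK293T markers reached 1 RPKM, 6 of them were listed at 0 throughout, and the summed level of the list was 0.296 to 0.540 RPKM, against 108 to 169 in the empty vector and 56.2 to 110 in hPRM2. The same 3 libraries held 7 or 8 of 8 erythroid markers, 7 of 8 neutrophil markers, 8 of 8 monocyte markers, 8 of 8 T and NK cell markers, 6 of 6 B cell markers and 5 or 6 of 6 platelet markers at 1 RPKM or more. Of these lists, at most 3 markers each reached 1 RPKM in any empty vector or hPRM2 library, and all 8 T and NK cell markers were listed at 0 there. The 3 libraries are therefore called by their label. The library names in their labels also carry numbers apart from those of the other 6, so that library series, sample content and condition cannot be told apart in them.

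By an estimate of reads on genes, which is not the number of reads sequenced and rests on assumed transcript lengths, 7930000 to 10790000 reads lay in the empty vector libraries, 4210000 to 5860000 in those labelled hPRM1 and 1270000 to 2650000 in hPRM2. A value of 0 allows 3 reads per library, which is at most 0.378, 0.712 and 2.36 CPM (RPKM before the division by gene length) in the 3 groups and covers counting error only. Of 15 housekeeping genes, 1 was listed at 0 in empty vector replicate 3 and 2 in hPRM2 replicate 1, so a gene at 0 is given as listed at 0 and no fold change is formed against a group at 0. Because the kit reads 3′ ends, division by gene length lowers the RPKM of long genes relative to short ones, so an order of genes is given in RPKM and also in estimated reads, taken with the longest transcript of each gene. In bulk RNA, fewer cells of a type cannot be told apart from less RNA per cell.

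In the empty vector libraries, most of the sensors were not detected, while several kinases and adaptors were. Of the 36 genes, 17 were listed at 0 in all 3 libraries, 9 were above 0 in all 3, and 6 had 1 RPKM or more in all 3. The 6 genes were IRAK1, IRAK4, TRAF6, RIPK2, MAVS and NLRP1. IRAK1, a kinase that MYD88 recruits, had the highest level in RPKM, 54.9 ± 12.2 (SD, n = 3). NLRP1, an inflammasome sensor, followed with 22.0 ± 2.40 RPKM, and the range of its libraries did not overlap that of IRAK1. RIPK2, the kinase of the NOD receptors, had 12.9 ± 3.64 RPKM, MAVS, the adaptor of the RNA sensors, 9.44 ± 1.37 RPKM, and IRAK4, the first kinase of the Toll-like pathway, 7.68 ± 3.62 RPKM (SD, n = 3). In RPKM these 3 overlapped between libraries. TRAF6, a ubiquitin ligase, was lowest of the 6, with 2.60 ± 0.660 RPKM (SD, n = 3). In estimated reads IRAK1 was again highest, with 1425 to 1987, and TRAF6 lowest, with 88.0 to 123, but the order between them differed. MAVS, which has a long transcript, had 947 to 986 estimated reads, within the 852 to 1301 of NLRP1 and above RIPK2 (229 to 303) and IRAK4 (202 to 403) in every library.

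The same 6 genes were the members with enough signal to be tested in hPRM2 against the empty vector. In hPRM2, 19 genes were listed at 0 in all 3 libraries and 4 had 1 RPKM or more in all 3. In the libraries labelled hPRM1, 2 genes were listed at 0 in all 3, NOD2 and IFIH1, and 25 had 1 RPKM or more in all 3. The summed level of the 36 genes was 94.0 to 136 RPKM in the empty vector, 477 to 530 in the libraries labelled hPRM1 and 71.7 to 82.1 in hPRM2.

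**Figure D1:**
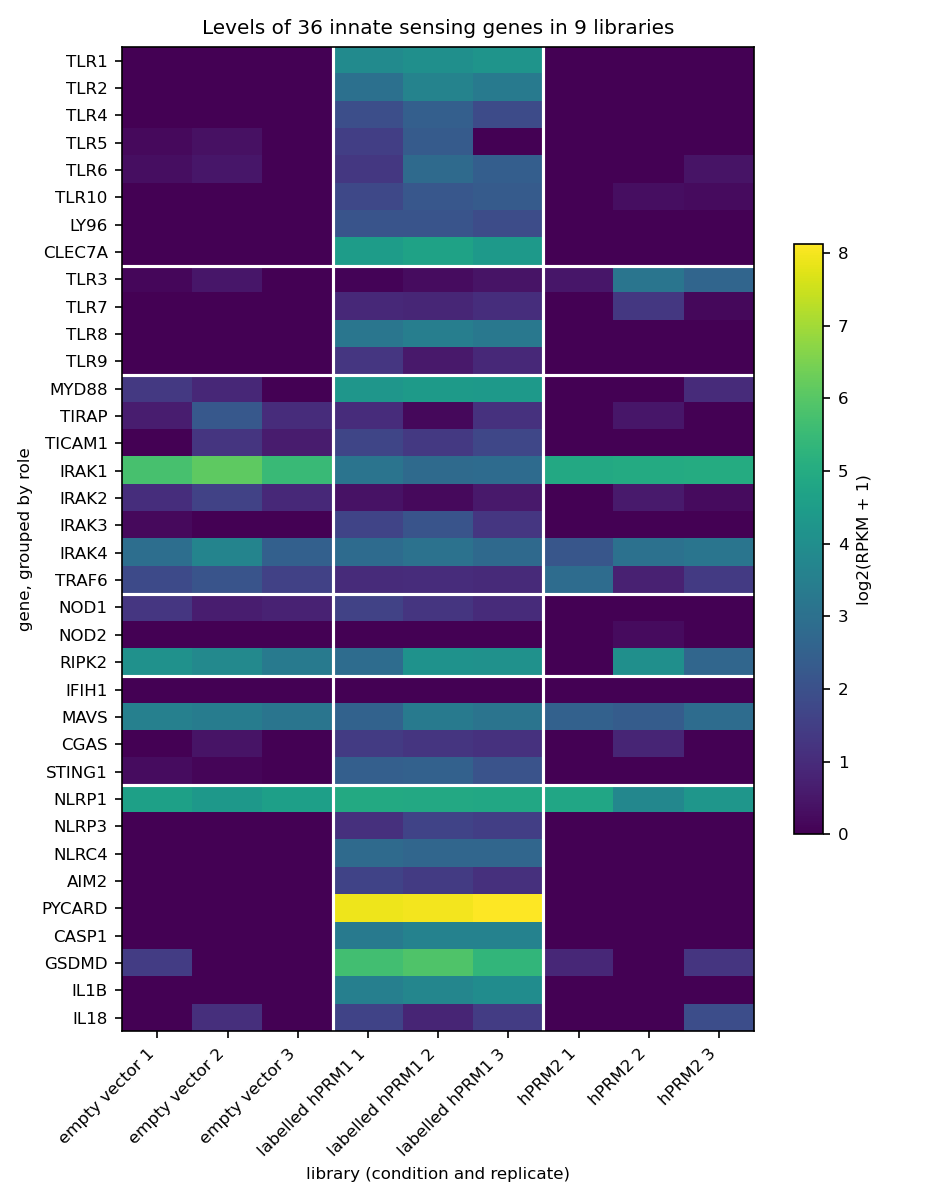
Level of the 36 genes (rows, grouped by role between white lines) in the 9 libraries (columns) as log2(RPKM + 1), from dark for 0 to yellow for the highest value. The libraries labelled hPRM1 show signal in most rows, and PYCARD is the brightest, while in the empty vector and hPRM2 the signal lies mainly in IRAK1, NLRP1, MAVS, IRAK4 and RIPK2.

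The windows before the RefSeq gene starts held different numbers of CpG dinucleotides, cytosine followed by guanine, in members listed at 0 and in members measured in the empty vector. RefSeq promoters of GRCh38.p14 matched 23 of the 36 genes, and the 250 bases before the RefSeq start were counted. NLRP1 and RIPK2, which had 1 RPKM or more in all 3 empty vector libraries, had no match. Where GENCODE 29 places a start further upstream, the window holds annotated exon of the gene, which makes up more than 125 of the 250 bases in AIM2 (135), MYD88 (183), TLR4 (228), PYCARD (232), IRAK3 and TLR9 (250 each). The 11 members listed at 0 in all 3 empty vector libraries held a median of 4 CpG (range 0 to 26), the 8 between held 20.5 (3 to 26), and the 4 with 1 RPKM or more in all 3 held 26 (22 to 43). Without those 6 windows the medians were 4 (7 members), 21 (6 members) and 26 (4 members). The median over all 27305 promoters was 11. The counts are a description of these windows, without a test. Among the members at 0, TLR2 with 26 and IFIH1 with 12 lay above that median, as did PYCARD with 16, all of them in annotated exon.

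Stretches of 2 members listed at 0 that held few CpG and of 2 members measured in the empty vector are shown as examples. They do not show the spread, since TLR2 and IFIH1, also listed at 0, held 26 and 12 CpG in their windows. The stretches run 5′ to 3′ on the strand of the gene, with CpG in capitals and without bases that GENCODE 29 annotates as exon. TLR8 (chrX:12906370-12906619, + strand) has 4 CpG in 250 bases and IL1B (chr2:112836904-112837029, - strand) has 0 in 126 bases. TRAF6 (chr11:36510273-36510522, - strand) has 24 in 250 bases and IRAK1 (chrX:154019981-154020152, - strand) has 29 in 172 bases.
TLR8: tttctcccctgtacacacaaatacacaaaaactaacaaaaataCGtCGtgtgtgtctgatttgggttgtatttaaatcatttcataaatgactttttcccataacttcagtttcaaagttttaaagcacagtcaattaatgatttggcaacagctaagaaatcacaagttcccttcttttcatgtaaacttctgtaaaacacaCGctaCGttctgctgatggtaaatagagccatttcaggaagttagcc
IL1B: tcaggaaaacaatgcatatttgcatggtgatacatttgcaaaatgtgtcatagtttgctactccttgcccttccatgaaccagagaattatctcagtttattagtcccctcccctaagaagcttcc
TRAF6: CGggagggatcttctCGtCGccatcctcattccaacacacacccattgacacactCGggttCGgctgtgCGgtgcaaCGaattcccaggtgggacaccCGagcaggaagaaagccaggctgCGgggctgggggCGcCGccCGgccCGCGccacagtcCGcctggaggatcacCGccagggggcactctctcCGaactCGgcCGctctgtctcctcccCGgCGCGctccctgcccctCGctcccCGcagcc
IRAK1: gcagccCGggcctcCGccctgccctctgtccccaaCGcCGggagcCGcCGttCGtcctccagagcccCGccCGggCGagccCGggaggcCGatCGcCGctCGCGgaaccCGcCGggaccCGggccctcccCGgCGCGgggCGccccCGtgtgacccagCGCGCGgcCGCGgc

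The motif GAGGAAGT, bound by ETS factors of the PU.1 type, was found on either strand in TLR4 and TLR9, 2 of the 23 members, against 2.13% of all promoters in the table. Both windows are mostly or wholly annotated exon, as given above, and of the 17 members with at most 125 such bases 0 held the motif. The motif TATAAA was found on the strand of the gene in NLRP3 and in the exonic window of TLR9, against 7.17% of all promoters. Neither motif contains the other, and a match describes the letters only.

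Against the empty vector, the libraries labelled hPRM1 had higher levels of 19 members, among them 7 of 8 cell surface receptors, TLR8 and 7 of 9 inflammasome genes, and a lower level of IRAK1. Levels were compared as log2(RPKM + 1) with limma over genes with 1 RPKM or more in at least 3 of the 6 libraries, and genes were called at a Benjamini-Hochberg adjusted p-value up to 0.05 if they also differed by 2-fold or more. The added 1 makes log2 differences of low genes smaller than their ratios. Of the 29 members tested, 19 were called higher, where 12.9% of the 13588 tested genes were called higher, and 1 was called lower, where 62.5% of all tested genes were. Of the 29, 17 passed the filter only through the libraries labelled hPRM1, with no empty vector library at 1 RPKM or more. These had to differ, so the count of 19 is not support for a difference. MYD88 and GSDMD, each with 1 empty vector library at 1 RPKM or more, also needed the libraries labelled hPRM1 to pass. The median log2 difference was 1.93 for the tested members and -1.72 for all tested genes. In these 3 libraries the neutrophil markers summed to 3643 to 4400 RPKM and the monocyte markers to 692 to 1100 RPKM, against at most 2.27 and 40.7 RPKM in the empty vector, and the part of these cells in the differences was not tested.

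Of the 8 receptors of the cell surface, 7 were tested and called higher, where 12.9% of all tested genes were. All 7 passed the filter only through the libraries labelled hPRM1, so that they had to differ, and their values are given as a description. CLEC7A (dectin-1, a receptor for fungal beta-glucan) was listed at 0 in all 3 empty vector libraries and had 21.4, 24.5 and 20.0 RPKM in the libraries labelled hPRM1. TLR1, which pairs with TLR2 on bacterial lipopeptides, was listed at 0 and had 13.8, 15.4 and 17.6 RPKM, and TLR2 itself was listed at 0 and had 7.08, 11.4 and 9.22 RPKM. The groups did not overlap for these genes, with limma adjusted p-values of 5.04e-06 for CLEC7A, 7.81e-06 for TLR1 and 2.81e-05 for TLR2. TLR6, the other partner of TLR2, had 0.224, 0.395 and 0 RPKM in the empty vector and 1.51, 5.99 and 4.35 RPKM in the libraries labelled hPRM1, a log2 difference of 1.93 ± 0.40 (SE, n = 3 per group, limma adjusted p = 0.00386).

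The receptor complex for bacterial lipopolysaccharide, TLR4 with LY96 (MD-2), was also listed at 0 in the empty vector. TLR4 had 2.85, 4.55 and 2.61 RPKM in the libraries labelled hPRM1 (limma adjusted p = 0.000155). LY96 had 3.34, 3.33 and 2.68 RPKM (limma adjusted p = 5.55e-05), which rests on about 7, 5 and 5 estimated reads against 210.2, 241 and 172 for TLR4. In GENCODE 29, exons of another annotated gene on the same strand overlap TLR4, so that reads could be split there. The same holds for TLR9, for IRAK1 (MIR718) and for IRAK3 (MIR6502). TLR10, of the same subfamily as TLR1 and TLR6, was listed at 0 in the empty vector and had 2.37, 3.60 and 4.02 RPKM (limma adjusted p = 0.000124). TLR5, the flagellin receptor, did not pass the filter, with 1.83, 4.0 and 0 RPKM in the libraries labelled hPRM1 and at most 0.274 in the empty vector.

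Of the 4 endosomal receptors, 1 was tested. TLR8, a sensor of single-stranded RNA, was listed at 0 in the empty vector. It had 8.17, 10.2 and 8.64 RPKM in the libraries labelled hPRM1 (limma adjusted p = 1.63e-05). TLR8 passed the filter only through these libraries, so it had to differ. TLR7, which senses similar RNA, had 0.931, 0.848 and 1.09 RPKM there and TLR9, a sensor of CpG DNA, had 1.41, 0.459 and 0.899 RPKM, and both were listed at 0 in the empty vector. They missed the filter, and without it their limma adjusted p-values were 0.00669 and 0.0233. TLR3, a sensor of double-stranded RNA, was at most 0.408 RPKM in both groups.

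The adaptors and kinases of the Toll-like pathway moved in both directions. MYD88, the adaptor of all Toll-like receptors but TLR3, had 1.55, 0.862 and 0 RPKM in the empty vector and 18.2, 20.6 and 20.1 RPKM in the libraries labelled hPRM1. The groups did not overlap, and the log2 difference was 3.62 ± 0.36 (SE, n = 3 per group, limma adjusted p = 0.000115). As 1 empty vector library reached 1 RPKM, MYD88 too needed the libraries labelled hPRM1 to pass the filter, and the values are a description. IRAK3, an inhibitory member of the kinase family, had 0.165, 0 and 0 RPKM against 2.19, 3.36 and 1.45 RPKM, a log2 difference of 1.62 ± 0.25 (limma adjusted p = 0.000873). IRAK3 passed the filter only through the libraries labelled hPRM1, so it had to differ.

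IRAK1 (ENSG00000184216, chromosome X, 154010500 to 154019980, - strand of GRCh38 in GENCODE 29) went the other way. It had 52.6, 68.0 and 44.0 RPKM in the empty vector and 7.74, 6.05 and 6.16 RPKM in the libraries labelled hPRM1, so that the lowest empty vector library lay well above the highest of the others. The log2 difference was -2.85 ± 0.23 (SE, n = 3 per group, limma adjusted p = 4.74e-05), against the median of -1.72 over all tested genes. With median-of-ratios scaling it was -0.80 against a median of -0.12 and was not called, and with quantile normalization it was -1.19 against a median of -0.38 and was called.

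The other members of this group were not called. TICAM1, the adaptor of TLR3, had 0, 1.40 and 0.535 RPKM in the empty vector and 2.25, 1.57 and 2.29 RPKM in the libraries labelled hPRM1, a log2 difference of 0.97 that missed the fold threshold (limma adjusted p = 0.0363). Without empty vector replicate 2, TICAM1 was called, with a log2 difference of 1.28 (limma adjusted p = 0.00738). TRAF6 had 2.54, 3.29 and 1.97 RPKM against 1.01, 1.03 and 0.962 RPKM, a log2 difference of -0.83 (adjusted p = 0.0122) that became 0.51 with median-of-ratios scaling. IRAK4, with 4.64 to 11.7 RPKM against 5.84 to 7.29 RPKM, overlapped between groups (log2 difference -0.15 ± 0.33). TIRAP, which bridges MYD88 to TLR2 and TLR4, overlapped as well, with 0.576 to 3.76 RPKM against 0.119 to 1.25 RPKM. IRAK2 missed the filter and had 0.918 to 2.03 RPKM in the empty vector and 0.147 to 0.473 RPKM in the libraries labelled hPRM1.

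No NOD pathway gene was called. NOD1, a sensor of bacterial peptidoglycan, had 1.42, 0.578 and 0.698 RPKM in the empty vector and 2.06, 1.40 and 0.991 RPKM in the libraries labelled hPRM1. RIPK2 had 16.4, 13.2 and 9.10 RPKM against 6.34, 16.6 and 16.4 RPKM, a log2 difference of -0.05 ± 0.41. Both overlapped between groups, and NOD2, the related sensor, was listed at 0 in all 6 libraries.

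Among genes of RNA and DNA sensing, the DNA sensing pair was called higher in the libraries labelled hPRM1, and both genes had passed the filter only through these libraries. STING1, the adaptor that responds to the second messenger of CGAS, had 0.214, 0.0793 and 0 RPKM in the empty vector and 4.51, 4.75 and 3.24 RPKM in the libraries labelled hPRM1 (log2 difference 2.23 ± 0.22, limma adjusted p = 0.000101). CGAS, the sensor of cytosolic DNA, had 0, 0.359 and 0 RPKM against 1.69, 1.38 and 1.23 RPKM (log2 difference 1.13 ± 0.19, limma adjusted p = 0.00143). Neither gene overlapped between groups. MAVS had 10.7, 9.66 and 7.97 RPKM against 4.89, 9.27 and 7.80 RPKM, which overlapped (log2 difference -0.36 ± 0.27), and IFIH1 (MDA5, a sensor of long RNA duplexes) was listed at 0 in all 9 libraries.

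The 9 inflammasome genes were all tested, and 7 were called higher, where 12.9% of all tested genes were. Of the 9, 6 passed the filter only through the libraries labelled hPRM1 and had to differ. PYCARD (ENSG00000103490, chromosome 16, 31201485 to 31203450, - strand of GRCh38 in GENCODE 29) was listed at 0 in all 3 empty vector libraries and had 243, 251 and 278 RPKM in the libraries labelled hPRM1. It had the highest mean RPKM of the 36 genes there, 257 ± 18.2 RPKM (SD, n = 3). In estimated reads PYCARD had 1054, 783 and 1076 there, a range that overlapped the 899, 637 and 773 of NLRP1. The limma adjusted p-value was 1.68e-06. An antisense gene, PYCARD-AS1, overlaps its exons, and whether reads were counted by strand is not given in the sources used here.

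GSDMD, the pore that CASP1 opens, had 1.72, 0 and 0 RPKM in the empty vector and 50.3, 58.3 and 39.5 RPKM in the libraries labelled hPRM1, without overlap. The log2 difference was 5.16 ± 0.44 (SE, n = 3 per group, limma adjusted p = 5.46e-05). With 1 empty vector library at 1 RPKM or more, GSDMD also needed the libraries labelled hPRM1 to pass the filter. CASP1 was listed at 0 in the empty vector and had 9.19, 11.1 and 11.0 RPKM, and its substrate IL1B was listed at 0 and had 10.4, 12.4 and 14.4 RPKM, with limma adjusted p-values of 1.28e-05 and 1.24e-05. CARD16 is a close copy of CASP1, so that the split of reads between them is uncertain.

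The sensors NLRC4, NLRP3 and AIM2 were lower in RPKM than PYCARD and CASP1 in every library labelled hPRM1. NLRC4, which responds to bacterial flagellin and secretion needles through NAIP, had 6.03, 5.38 and 5.35 RPKM in the libraries labelled hPRM1, NLRP3, which responds to potassium efflux, had 1.18, 2.08 and 1.86 RPKM, and AIM2, a sensor of DNA, had 2.13, 1.67 and 1.20 RPKM. All 3 were listed at 0 in the empty vector, with limma adjusted p-values of 2.53e-05, 0.000374 and 0.000383. NLRP3 and AIM2 overlapped each other in RPKM, and NLRC4 lay above both in every library. In estimated reads, NLRC4, with 118, 75.4 and 93.3, overlapped CASP1, with 94.3, 82.0 and 101.

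NLRP1 and IL18 were not called. NLRP1 had 23.5, 19.2 and 23.2 RPKM in the empty vector and 29.6, 29.1 and 28.5 RPKM in the libraries labelled hPRM1, where this sensor lay above CASP1. The groups did not overlap, but the log2 difference of 0.39 ± 0.18 did not pass (limma adjusted p = 0.0817), while with median-of-ratios scaling it was 2.48 and was called. IL18 had 0, 1.11 and 0 RPKM against 2.09, 0.794 and 1.71 RPKM, which overlapped (log2 difference 0.94 ± 0.37, limma adjusted p = 0.0504). IL18 was called without empty vector replicate 2 (1.30, limma adjusted p = 0.00714) and without replicate 2 of the libraries labelled hPRM1 (1.17, limma adjusted p = 0.0411).

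**Figure D2:**
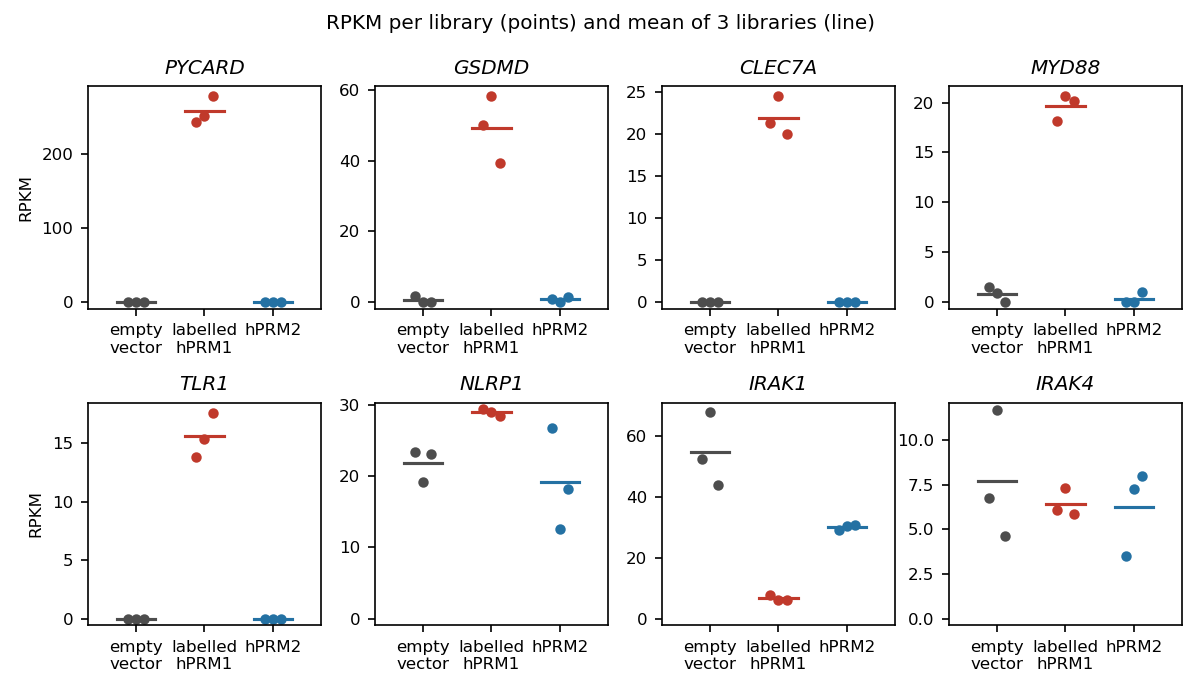
RPKM (y axis, linear, a scale per panel) of 8 genes in the 3 groups (x axis), with 1 point per library and a line at the mean of 3 libraries. PYCARD, GSDMD, CLEC7A, MYD88 and TLR1 are at or near 0 outside the libraries labelled hPRM1, IRAK1 is lowest in them, IRAK4 overlaps between all groups, and NLRP1 is high in all groups.

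The direction of some members that both groups express changed with the scaling of the libraries. The deposited values are scaled to total reads, and the 8 erythroid markers summed to 2060240 to 2266410 RPKM in the libraries labelled hPRM1, against 3.09 to 18.2 RPKM in the empty vector. With median-of-ratios scaling, 26 of the 29 tested members were called higher and 0 lower, and with quantile normalization 26 and 1. Of all 13588 tested genes, 3919 were called higher and 3925 lower with median-of-ratios scaling. With quantile normalization the numbers were 3404 and 4672. TIRAP, IRAK4, TRAF6, RIPK2 and MAVS changed from a negative to a positive log2 difference under both scalings. IRAK1 stayed negative and NLRP1 positive under both, and the 19 members called higher with the deposited scaling had positive differences under both. For 13 of these 19, no empty vector library had a value above 0. Median-of-ratios scaling leaves a 0 at 0, so the positive sign of these 13 under it was fixed in advance and tests nothing. Over all tested genes, 17.1% of the calls were higher with the deposited scaling, 50.0% with median-of-ratios scaling and 42.1% with quantile normalization.

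The smaller differences also depended on the pseudocount and the test. With a pseudocount of 5, TLR4, TLR6, TLR10, LY96, IRAK3, CGAS, STING1, NLRP3 and AIM2 fell under the fold threshold. With the per-gene test of the study's methods, TLR2, TLR4, TLR6, TLR10, IRAK1, IRAK3, NLRP3 and AIM2 had adjusted p-values from 0.0509 for TLR2 to 0.143 for TLR6 and were not called, while PYCARD, CASP1, GSDMD, IL1B, CLEC7A, TLR1, TLR8 and MYD88 were among the 12 still called higher.

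**Figure D3:**
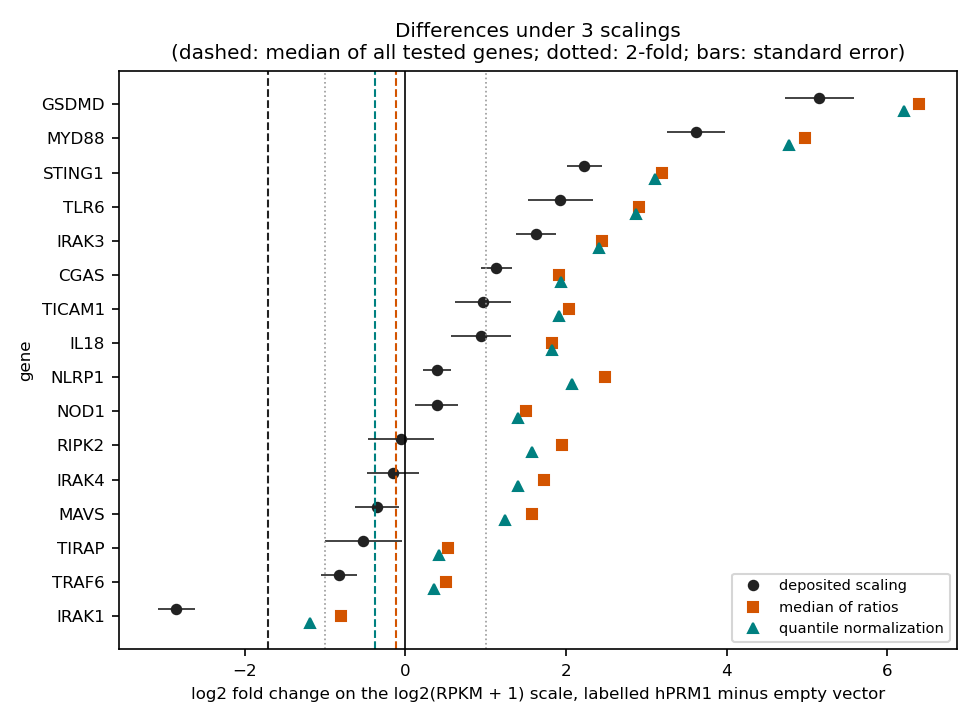
Log2 difference of the libraries labelled hPRM1 from the empty vector (x axis, log2(RPKM + 1) scale) under 3 scalings, for the tested members not listed at 0 in all empty vector libraries (y axis). Dashed lines mark the median of all tested genes in each scaling, -1.72, -0.12 and -0.38, dotted lines mark a fold change of 2, and bars on the black points are standard errors.

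In the cells with hPRM2, no member was called. With hPRM2, whose own libraries held PRM2 and the HEK293T markers, 6 of the 36 members could be tested and 0 were called, and 0 of the 6 had an unadjusted limma p-value under 0.05. Over all 13126 tested genes, 1.36% were called higher and 1.37% lower, and 3351 had an unadjusted limma p-value under 0.05. The per-gene test of the study's methods also called 0 members. By the estimate of reads on genes, which is not the number sequenced, the hPRM2 libraries were the shallowest, so that low values there carried the most counting error.

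Of the 6 members tested in hPRM2, IRAK1 had the smallest unadjusted limma p-value, 0.0547, and RIPK2 the largest log2 difference. IRAK1 had 29.0, 30.3 and 30.8 RPKM in hPRM2 against 52.6, 68.0 and 44.0 RPKM in the empty vector, so that the groups did not overlap. The log2 difference was -0.83 ± 0.36 (SE, n = 3 per group, limma adjusted p = 0.204), against a median of -0.72 over all tested genes. With median-of-ratios scaling it was -0.28 and with quantile normalization -0.61.

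MAVS had 4.72, 4.15 and 6.25 RPKM in hPRM2, below all 3 empty vector libraries (log2 difference -0.80 ± 0.51, limma adjusted p = 0.350). RIPK2 ranged from 0 to 15.6 RPKM in hPRM2, and its log2 difference of -1.52 had a standard error of 1.04 (adjusted p = 0.376). NLRP1 had 26.8, 12.6 and 18.2 RPKM, IRAK4 3.48, 7.22 and 8.0 RPKM and TRAF6 6.37, 0.681 and 1.60 RPKM, and all 3 overlapped the empty vector. Their log2 differences were -0.24 ± 0.46, -0.25 ± 0.60 and -0.16 ± 0.68.

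Of the members not tested in hPRM2, TLR3 had the highest level. It had 0.420, 7.88 and 5.31 RPKM in hPRM2 and 0.109, 0.408 and 0 RPKM in the empty vector. The groups did not overlap, though the lowest hPRM2 library lay just above the highest control, and without the filter the limma adjusted p-value was 0.300. The receptors CLEC7A, TLR1, TLR2, TLR4, TLR5, TLR8 and TLR9 were listed at 0 in all 3 hPRM2 libraries. So were LY96, of the TLR4 receptor complex, and the inflammasome genes PYCARD, CASP1, IL1B, NLRP3, NLRC4 and AIM2. TICAM1, IRAK3, NOD1 and STING1 were listed at 0 in hPRM2 too, with at most 1.42 RPKM in the empty vector. TLR7, with up to 1.48 RPKM, IL18, with up to 2.77, GSDMD, with up to 1.41, and MYD88, with up to 1.02, were above 0 in some hPRM2 libraries, and TLR6, TLR10, NOD2 and CGAS stayed under 1 RPKM. TIRAP and IRAK2, with at most 0.394 and 0.486 RPKM in hPRM2, and NOD1, listed at 0, lay below all 3 empty vector libraries. Without the filter their limma adjusted p-values were 0.344, 0.345 and 0.252. For TIRAP, 3 reads equal 0.582 to 1.21 RPKM in hPRM2, above its lowest empty vector value of 0.576 RPKM, so its separation lies within counting error. For NOD1 they equal up to 0.556 RPKM, just under its lowest empty vector value of 0.578 RPKM.

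The libraries labelled hPRM1 differed from hPRM2 much as they did from the empty vector, and the 2 comparisons share the libraries labelled hPRM1. Of 27 members tested, 19 were called higher, where 16.0% of the 11756 tested genes were, and 1 was called lower, where 37.0% were. Of the 27, 18 passed the filter only through the libraries labelled hPRM1. The 19 include LY96 and AIM2, for which 3 reads equal 3.17 to 6.62 and 0.885 to 1.85 RPKM in hPRM2. In the libraries labelled hPRM1 these genes had 2.68 to 3.34 and 1.20 to 2.13 RPKM, so a 0 in hPRM2 cannot show a lower level of them. IRAK1 was the gene called lower (log2 difference -2.03 ± 0.31, limma adjusted p = 0.00226), and it was not called with median-of-ratios scaling (-0.22) or quantile normalization (-0.67). MYD88 and GSDMD differed by 4.03 ± 0.43 and 4.92 ± 0.46 on the log2 scale (limma adjusted p = 0.000636 and 0.000413). Each had 1 hPRM2 library at 1 RPKM or more, so both again needed the libraries labelled hPRM1 to pass the filter.

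TLR6 and TLR10, which were near 0 in hPRM2, were called higher by 2.05 ± 0.44 and 1.91 ± 0.29 on the log2 scale (limma adjusted p = 0.00908 and 0.00208). TICAM1, listed at 0 in all 3 hPRM2 libraries, was called higher here (limma adjusted p = 0.00116). TLR6, TLR10, TICAM1 and CGAS passed the filter only through the libraries labelled hPRM1, so they had to differ. CGAS had 0, 0.804 and 0 RPKM in hPRM2, and its log2 difference of 0.99 lay just under the fold threshold (limma adjusted p = 0.0302). Without hPRM2 replicate 2, CGAS was called (1.28, limma adjusted p = 0.0114). NLRP1, IRAK4, RIPK2, MAVS, TRAF6 and IL18 were not called, with adjusted p-values from 0.200 to 0.873, and with median-of-ratios scaling the first 4 and IL18 were called higher. IL18 was also called without hPRM2 replicate 3 (1.30, limma adjusted p = 0.0251).

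A wider list of 93 genes of the same pathways gave counts in both directions. Against the empty vector, 74 were tested in the libraries labelled hPRM1, 35 were called higher and 13 lower, where 12.9% and 62.5% of all tested genes were, and 21 had passed the filter only through these libraries. With median-of-ratios scaling 59 were called higher and 1 lower, where 3919 and 3925 of all 13588 tested genes were. FCER1G, the signalling chain that some lectin receptors share, was listed at 0 in the empty vector and had 296, 420 and 315 RPKM. CD14, the co-receptor of TLR4, had 0, 0.753 and 0 RPKM against 117, 143 and 99.6 RPKM. CASP4, which senses lipopolysaccharide inside cells, and IFI16, a DNA sensor, were listed at 0 in the empty vector and had 73.0 to 89.1 and 31.6 to 64.6 RPKM. These 4 had the largest log2 differences of the list.

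In each sublist the share called lower was under the 62.5% of all tested genes, of which 12.9% were called higher. Genes that passed the filter only through the libraries labelled hPRM1 could not be called lower. These were 3 of 18 tested genes of Toll-like signalling, 1 of 20 NF-kappaB genes and 12 of 19 inflammasome genes. The same held for 2 of 11 genes of RNA and DNA sensing and 3 of 6 of dectin signalling. The filter thus set these shares in part. By sublist, 6 of 18 tested genes of Toll-like signalling were called lower and 6 higher, 3 of 20 NF-kappaB genes lower and 4 higher, 2 of 19 inflammasome genes lower and 15 higher, 2 of 11 genes of RNA and DNA sensing lower and 6 higher, and 0 of 6 genes of dectin signalling lower and 4 higher. HSP90B1, a chaperone that Toll-like receptors need for folding, had 173, 139 and 129 RPKM in the empty vector and 10.8, 19.9 and 16.1 RPKM in the libraries labelled hPRM1 (log2 difference -3.18), and was the gene still called lower with median-of-ratios scaling (-1.06). TAB2 and MAP3K7, partners in the kinase complex below TRAF6, had log2 differences of -2.55 and -2.28, and TBK1, a kinase of interferon induction, -2.41. With median-of-ratios scaling these 3 were -0.70, -0.41 and -0.57 and were not called. TBK1 overlapped between groups, with 15.1, 32.2 and 40.5 RPKM in the empty vector and 0.567, 18.8 and 3.73 RPKM in the libraries labelled hPRM1.

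In hPRM2, 48 of the 93 genes were tested, 0 were called higher and 1 lower, where 1.36% and 1.37% of all tested genes were. Of the 48, 16 had an unadjusted limma p-value under 0.05, as did 3351 of all 13126 tested genes. IKBKE, a kinase related to TBK1, had 2.15, 3.03 and 1.90 RPKM in the empty vector and was listed at 0 in all 3 hPRM2 libraries (limma adjusted p = 0.0475). It was not called with median-of-ratios scaling. In the libraries labelled hPRM1 against hPRM2, 71 were tested, 39 were called higher and 3 lower, where 16.0% and 37.0% of all tested genes were, and 20 had passed the filter only through the libraries labelled hPRM1. The 4 genes with the largest rises were again FCER1G, CASP4, CD14 and IFI16, and the 3 lower ones were HSP90B1, CHUK, a kinase of the NF-kappaB inhibitor, and TRAF3, an adaptor of interferon induction, none of which was called with median-of-ratios scaling.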

How the data were processed

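The study describes 9 libraries of HEK293T cells, 3 per condition, and they were grouped by their labels. In those labelled hPRM1, 0 of 8 HEK293T markers reached 1 RPKM. The authors counted reads on genes with nf-core/rnaseq (FastQC, cutadapt, STAR and Salmon, on hg38, versions not given in the sources used here), removed mitochondrial genes and deposited RPKM values, that is, counts scaled to the library total and to gene length. Replicates were not pooled, and the annotation is not given in the sources used here. A symbol was found for 98.6% of the identifiers.

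Comparisons were fitted in R 4.3.3 with limma 3.58.1 (lmFit, and eBayes with trend and robust) on log2(RPKM + 1), each on the 6 libraries of its groups without a replicate block. Genes with 1 RPKM or more in at least 3 of the 6 were tested, with Benjamini-Hochberg adjustment over all of them. The fit was tested on simulated data. Reads on genes were estimated from the value of 1 read in genes with a single transcript in GENCODE 29 (basic set), with 250 bases subtracted from each length, so the estimates assume these lengths. Members with a call are given in every library, other members by values or range, and of the wider list the 4 largest called differences per direction are named. TLR3, TLR7 and other untested members are given as values. Members and gene lists were chosen with earlier results of these data known. The alternatives tried were a pseudocount of 0.1 or 5, a minimum of 10 RPKM or none, median-of-ratios and quantile scaling, a shared fit of the 9 libraries, the replicate number as a block, the per-gene test of the study's methods, no fold threshold and leaving out each library. Python 3.11.15, with pandas 2.3.3, served for tables, and matplotlib 3.10.9 for figures.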

Additional observations from a re-analysis of the deposited data

How the results depend on the processing

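The counts depended on the scaling, the filter and the pseudocount. Of the members in the libraries labelled hPRM1 against the empty vector, 19 were called higher and 1 lower. The number higher was 10 with a pseudocount of 5, 6 with a minimum of 10 RPKM (fewer genes are tested) and 12 with the per-gene test of the methods, and the number lower was 2 with a pseudocount of 0.1 or no fold threshold, 0 with median of ratios and 0 with the per-gene test. Against hPRM2, 19 higher became 10, 6 and 1 with a pseudocount of 5, a minimum of 10 RPKM and the per-gene test, and 1 lower became 0 with median-of-ratios and 0 with quantile scaling. With 1 library left out and the tested genes kept, 19 to 21 members were higher against the empty vector and 19 or 20 against hPRM2. With the filter applied again, an alternative chosen after seeing the data, the range was 2 to 20 in both, the low values without a library labelled hPRM1, since genes seen in that group alone then fail the filter. For hPRM2 against the empty vector, 0 members were called under every alternative run.

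Over all genes, 1750 were called higher and 8491 lower in the libraries labelled hPRM1 against the empty vector. The numbers were 3919 and 3925 with median of ratios, 3404 and 4672 with quantile normalization, 867 and 4970 with a minimum of 10 RPKM, 791 and 3723 with the per-gene test, and 1152 higher with a pseudocount of 5. With a library left out they were 1633 to 1824 and 8148 to 8610, and with the filter applied again 664 to 1816 and 5606 to 8478. Against hPRM2, 1879 higher and 4355 lower became 3662 and 2148, 3114 and 2572, 922 and 2828, and 116 and 103 under the first 4 of these, and 1540 to 2132 were higher with a library left out, or 402 to 2121 with the filter applied again. In hPRM2 against the empty vector, 179 higher and 180 lower became 72 and 17 without a filter, 507 and 1618 in the fit of all 9 libraries, and 0 and 9 with the per-gene test. The number lower was 101 with a pseudocount of 5, 44 with a minimum of 10 RPKM, 82 with median of ratios and 79 with quantile normalization. With a library left out it was 10 to 810 higher and 2 to 1619 lower (5 to 680 and 0 to 1577 with the filter applied again), the high values without hPRM2 replicate 1, whose cause was not tested.

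With the replicate block, 19 members were called higher and 1 lower in both comparisons of the libraries labelled hPRM1, and over all genes 49 were higher and 8 lower in hPRM2. Deviations of same-numbered libraries did not correlate above 0.1 in all 3 pairs of any comparison. In no comparison did every library correlate best with its own number. Against hPRM2, each library labelled hPRM1 did so (0.105, 0.075 and 0.013), but hPRM2 replicate 3 did not. With 3 libraries per group these correlations cannot exclude a pairing, and the labels give only a number. By the estimated reads on genes, depth limits hPRM2 most, where a value of 0 allows up to 2.36 CPM.

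Log2 differences of members that were not called changed sign in places, and the cause was not tested beyond the shift in scale. In the libraries labelled hPRM1 against the empty vector, they became 0.53 and 0.41 for TIRAP, 1.73 and 1.41 for IRAK4, 0.51 and 0.36 for TRAF6, 1.95 and 1.57 for RIPK2 and 1.57 and 1.24 for MAVS with median-of-ratios and quantile scaling, and 0.020 for RIPK2 with the per-gene test. Leaving out a library gave -0.26 to 0.37 for RIPK2 and -0.42 to 0.16 for IRAK4. In hPRM2 they became 0.25 and 0.43 for IRAK4, 0.18 and 0.38 for TRAF6 and 0.29 and 0.056 for NLRP1 with these scalings, and 0.11 for TRAF6 with the per-gene test, and leaving out a library gave -0.52 to 0.068, -0.77 to 0.30 and -0.50 to 0.017. In the libraries labelled hPRM1 against hPRM2, TRAF6 became 0.47 with median of ratios and IRAK4 ranged from -0.22 to 0.28 without a library.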
